A study of Mus musculus with 20 samples.

Results

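Annotated promoters are the stretches around transcription start sites that a regulatory annotation marks as promoters, and RNA counted over them can come from the first bases of a gene's own transcript or from unstable RNA that starts nearby. The counts of 22272 such promoters were given for 19 libraries of a mouse salivary gland cell line. Described here are the 4512 promoters selected on their own counts, by a mean of 5 or more over those libraries, 20.3% of all promoters in the table. The remaining rows included 9316 promoters with no count in any library. The 4512 promoters held 98.8% of all promoter counts. Each promoter carries an identifier that the deposited table does not pair with a position, a gene or a sequence, so the promoters are described by their levels.

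The cells were SIMS cells, a line from mouse salivary gland, grown in DMEM with 10% FBS, and the edited lines had been made with CRISPR/Cas9. The 5 groups were unedited wild-type cells, Btbd7 knockout (KO) cells, which the study used as its negative control, and 3 Zcchc8 KO clones, called clones 1, 2 and 3. Each Zcchc8 KO clone is a single line, and no allele of any edit is given. The promoter table held 3 wild-type libraries (replicates 2, 3 and 4) and 4 libraries of each edited group. The labels do not say whether replicates came from separate cultures, so the p-values measure only the spread between these libraries, which may be technical.

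Zcchc8 encodes a scaffold protein of NEXT, the nuclear exosome targeting complex. NEXT also contains the RNA-binding protein RBM7 and the helicase MTR4 (gene Mtrex), and it hands short, mostly unspliced nuclear transcripts to the RNA exosome, which degrades them from the 3′ end. Promoters are known sources of such transcripts, because RNA polymerase II often starts in both directions there and the upstream product, the promoter upstream transcript or PROMPT, is short-lived. Btbd7 encodes a BTB-domain protein known from the branching of the developing salivary gland.

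Because the mean that chose the promoters ran over 19 libraries, 12 of them Zcchc8 KO, the choice was not independent of the comparison of Zcchc8 KO with wild type. Of the 4512 promoters, 224 had a mean under 5 in the 7 wild-type and Btbd7 KO libraries and entered only through their Zcchc8 KO counts, and 110 had a mean under 5 in the Zcchc8 KO libraries. At the threshold, the promoters just inside had a mean of 5 counts (a sum of 95) and those just outside a mean of 4.95 (a sum of 94). The 3 examples taken from each side ranged from 0 to between 11 and 14 counts per library inside it, and from 0 to between 11 and 21 outside it.

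Depth differed between the groups. Counts in genes per library were 13876944 to 17771804 in the 3 wild-type libraries and 6833258 to 7683444 in clone 1, and the 19 libraries held 266552 to 640306 promoter counts each. In the gene table, which also holds wild-type replicate 1, Zcchc8 RNA was at 60.9 to 67.7 CPM (counts per 1000000 gene counts) in the 4 wild-type libraries, at 22.0 to 25.3 CPM in clone 2 and at 49.9 to 60.7 CPM in clone 3. Clone 1 held 56.0 to 66.4 CPM, which overlapped wild type (edgeR log2 fold change -0.08, adjusted p = 0.468), so this RNA level does not check the label of clone 1. Btbd7 RNA was at 94.5 to 103 CPM in Btbd7 KO against 190 to 208 CPM in wild type. For the mean of the clones, all 3 of the NEXT genes were lower (Zcchc8, Rbm7 and Mtrex), where 17.6% of all 15325 genes tested were higher and 17.7% lower. Of 6 genes for PAXT (the pathway for polyadenylated nuclear RNA) and cap-binding partners, Srrt was higher (0.52 on the log2 scale) and Ncbp1 lower (-0.15). Of 13 exosome genes tested, 1 was higher (Exosc5) and 5 were lower (Exosc1, Exosc8, Exosc9, Dis3 and C1d). All 10 salivary duct markers stood above 50 CPM in every group. For the mean of the clones, 4 of them were lower (Krt8 at -0.35, Krt18 at -0.44, Krt7 at -0.56 and Klf5 at -0.33 on the log2 scale) and 0 higher, and the 10 summed to 4624 CPM in wild type and 3970, 4059 and 3697 CPM in clones 1, 2 and 3. Of the 7 acinar markers, Aqp5 stood at 176 CPM in wild type and 110 to 148 CPM in the edited groups and was lower for the mean of the clones (-0.40), Bhlha15 stood at 0.873 to 1.75 CPM, and Smgc and Muc19 were at 0. Of the 4 myoepithelial markers, Krt14 stood at 315 CPM in wild type, 409 CPM in Btbd7 KO and 189, 289 and 203 CPM in clones 1, 2 and 3 (-0.50, called lower), and Acta2, Myh11 and Cnn1 were under 1 CPM. The endothelial markers summed to at most 0.36 CPM. Summed fibroblast markers ran from 11.9 CPM in clone 1 to 28 CPM in Btbd7 KO and leukocyte markers from 5.49 CPM in wild type to 11.8 CPM in clone 1. For the mean of the clones, the fibroblast marker Col1a1 was called higher (0.69) and Col3a1 lower (-3.83). Col3a1 stood at 3.11 CPM in wild type and 0.167, 0.0695 and 0.892 CPM in clones 1, 2 and 3. The leukocyte sum was mostly Cd68, at 5.49 CPM in wild type and 11.4 CPM in clone 1, and Ptprc and Cd3e were under 1 CPM. The part of these marker genes in the results was not tested.

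The promoters spanned a wide range of levels, and most of their counts lay in few of them. The median promoter had a mean of 29.2 counts per library and the most abundant a mean of 14403. The 10 most abundant promoters held 13.0% of the promoters' counts and the 100 most abundant 36.0%, whereas 3772 promoters (83.6%) had at least 1 count in every library. They were put into 5 abundance classes by their mean count. The class of 5 to under 10 counts held 849 promoters and 1.39% of the counts, that of 10 to under 30 held 1438 promoters and 5.95%, that of 30 to under 100 held 1349 and 17.3%, and that of 100 to under 300 held 617 and 24.2%. The class of 300 or more counts held 259 promoters and 51.1% of the counts.

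The classes also differed in how closely libraries of a group agreed. The median coefficient of variation between the 3 wild-type libraries was 63.0% in the class of 5 to under 10 counts, where counting alone gives 35.4%, and 8.35% in the class of 300 or more, where counting gives 3.85%. The median standard error of a log2 fold change between the mean of the clones and wild type was 0.65 in the lowest class and 0.09 in the highest. A difference that could be called at 300 counts was therefore often not detectable at 5 to 10 counts.

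Promoter RNA made up a larger part of the RNA in every library of the 3 Zcchc8 KO clones than in any wild-type library, while Btbd7 KO overlapped wild type. Counts in the 4512 promoters, per 1000 counts in genes, were 34.9, 34.4 and 34.8 in the 3 wild-type libraries. They were 38.5, 38.5, 38.5 and 39.4 in clone 1, 38.0, 37.1, 37.2 and 36.6 in clone 2, and 38.4, 37.5, 39.1 and 37.6 in clone 3. The lowest Zcchc8 KO library, at 36.6, lay above the highest wild-type library, at 34.9. The 4 Btbd7 KO libraries, at 35.3, 34.6, 34.4 and 34.2, overlapped wild type. The means were 34.7 ± 0.264 in wild type (SD, n = 3) and 34.6 ± 0.458 in Btbd7 KO (SD, n = 4). Clones 1, 2 and 3 had means of 38.7 ± 0.436, 37.2 ± 0.585 and 38.1 ± 0.723 (SD, n = 4). For each clone the two-sided exact permutation test against wild type gave p = 0.0571, the smallest that 4 libraries against 3 allow (0.0762 adjusted over 4 tests), and for Btbd7 KO the exact permutation p was 0.857. In bulk RNA, more cells with a transcript and more of it per cell cannot be told apart.

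**Figure D1:**
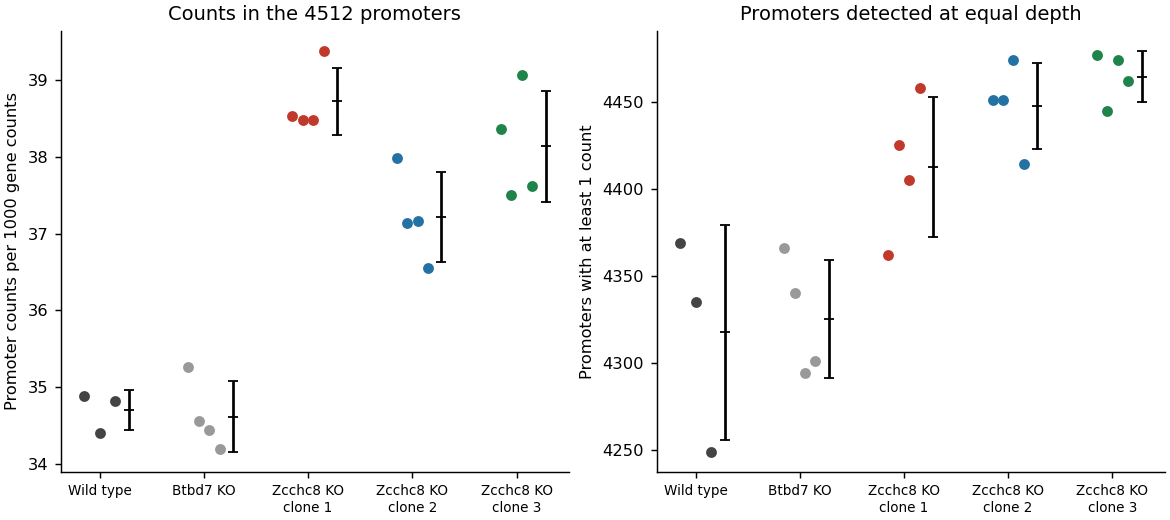
Counts in the 4512 promoters per 1000 gene counts (left) and number of promoters with at least 1 count after every library was thinned to equal depth (right), for wild type, Btbd7 KO and Zcchc8 KO clones 1 to 3. Points are libraries and bars are group means, and the vertical axes do not start at 0. All 12 Zcchc8 KO libraries lie above the wild-type share of 34.7 per 1000.

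The difference in share kept its direction without the most abundant promoters. Without the 10 most abundant, the clones exceeded wild type by 3.85, 2.73 and 3.52 counts per 1000, against 4.01, 2.51 and 3.43 with them, and without the promoters of 100 or more mean counts by 1.86, 1.83 and 2.05. Over the 4253 promoters of the whole table with a mean of 5 or more counts in Btbd7 KO, a choice that uses no Zcchc8 KO or wild-type library, the differences were 3.71, 2.27 and 3.21, and every clone library was above wild type.

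The number of promoters detected depended on which promoters were counted. With every library thinned to equal depth, 4318 ± 61.8 of the 4512 promoters had at least 1 count in wild type (SD, n = 3) and 4325 ± 33.9 in Btbd7 KO, against 4413 ± 40.1, 4448 ± 24.8 and 4465 ± 14.5 in clones 1, 2 and 3 (SD, n = 4). Clone 1 overlapped wild type in this number (exact permutation p = 0.114) and clones 2 and 3 did not (exact permutation p = 0.0571, and 0.114 adjusted over 4 tests). The choice of the 4512 promoters favours the clones here, since 224 of them entered only through Zcchc8 KO counts. Over the 4253 promoters chosen by Btbd7 KO alone, 4104 ± 53.7 had a count in wild type, against 4141 ± 39.1, 4166.5 ± 21.1 and 4191 ± 15.04 in the clones, and clones 1 and 2 then both overlapped wild type.

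At single promoters, more were higher than lower in the Zcchc8 KO clones. Of 4470 promoters with enough counts for the test, 625 were higher and 171 lower for the mean of the 3 clones against wild type at an edgeR adjusted p under 0.05. Over all 4642 promoters tested, which include 172 below the mean of 5, 13.9% were called higher and 3.73% lower. The median log2 fold change was 0.12 over the 4470 promoters and 0.14 over all tested. Of the promoters called higher, the median log2 fold change was 1.35, and 416 promoters were called and changed more than 2-fold upward against 23 downward. The 171 that were lower had a median of -0.48. With every library thinned to the smallest gene total, which removes the difference in depth, 518 were higher and 137 lower. Without wild-type replicate 4 the numbers were 521 and 109, and with each cell line taken as 1 replicate, 3 clones against the 2 control lines, limma called 277 higher and 2 lower. In the gene table, by comparison, 17.6% of 15325 genes were called higher and 17.7% lower, with a median log2 fold change of 0.02.

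The split between higher and lower depends on the scaling. With library sizes taken from the promoter table itself the median log2 fold change over the promoters moved from 0.12 to -0.02, and the calls became 502 higher and 385 lower. The larger share of promoter RNA in the clones is removed by that scaling. The comparisons below use the gene-table scaling.

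**Figure D2:**
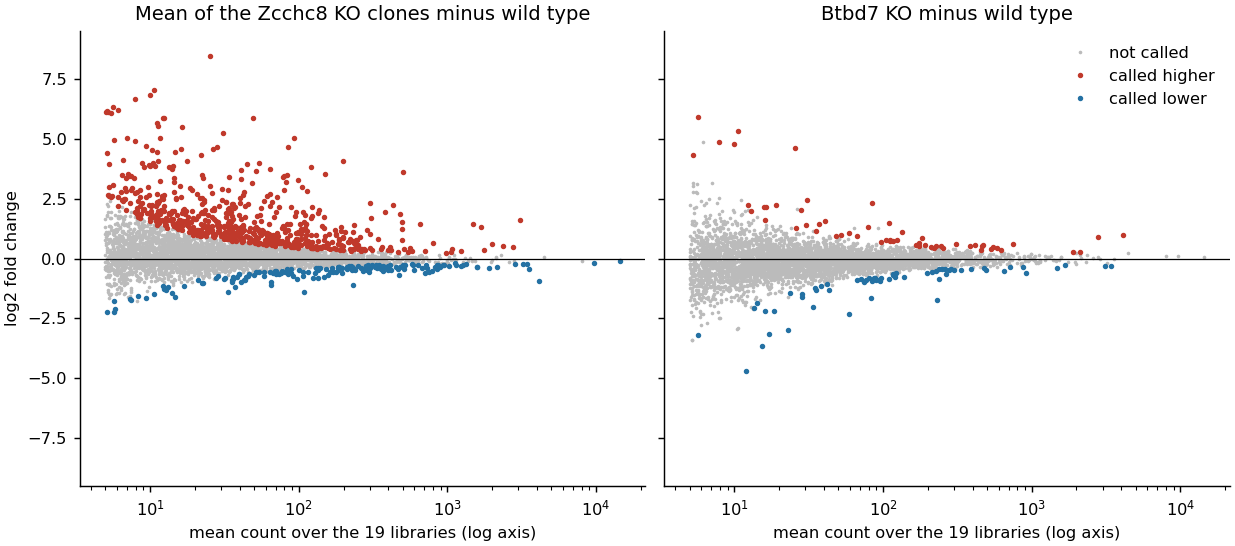
log2 fold change of each tested promoter against its mean count over the 19 libraries (log axis), with the average Zcchc8 KO clone (left) and Btbd7 KO (right) set against wild type. Coloured points are promoters with an edgeR adjusted p under 0.05. The left panel holds 625 such points above 0 and 171 below, the right panel 58 above and 63 below.

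The direction of the change moved with abundance. In the class of 5 to under 10 counts, 66 of 807 tested promoters (8.18%) were higher and 8 (0.99%) lower, and the median log2 fold change was 0.29. Between 10 and under 30 counts, 189 of 1438 (13.1%) were higher and 13 lower, with a median of 0.20. Between 30 and under 100, 229 of 1349 (17.0%) were higher and 41 lower, with a median of 0.16. At 100 to under 300 counts, 105 of 617 (17.0%) were higher and 53 (8.59%) lower, with a median of 0.012. At 300 or more counts, 36 of 259 (13.9%) were higher and 56 (21.6%) lower, with a median of -0.06, whereas without TMM factors 43 were higher and 38 lower. Taken singly, clones 1, 2 and 3 had 47, 32 and 31 promoters higher at 300 or more counts, and 48, 44 and 47 lower. The smaller share of calls in the lowest class stands beside its larger standard error.

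The 3 lowest classes had a positive median, and the class of 300 or more a negative one, under each of 4 scalings (gene totals with TMM, gene totals without TMM, DESeq2 size factors and the promoter table's own). The median of the class of 100 to under 300 was -0.13 with the promoter table's own scaling. That scaling also gave 24 higher and 113 lower promoters at 300 or more counts. In the lowest class, 9 tested promoters had no wild-type count. Setting them to the bound given by 3 counts over the wild-type libraries left the class median at 0.29. A median of 807 values moves little whatever 9 of them are set to, so this is no check of the class.

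**Figure D3:**
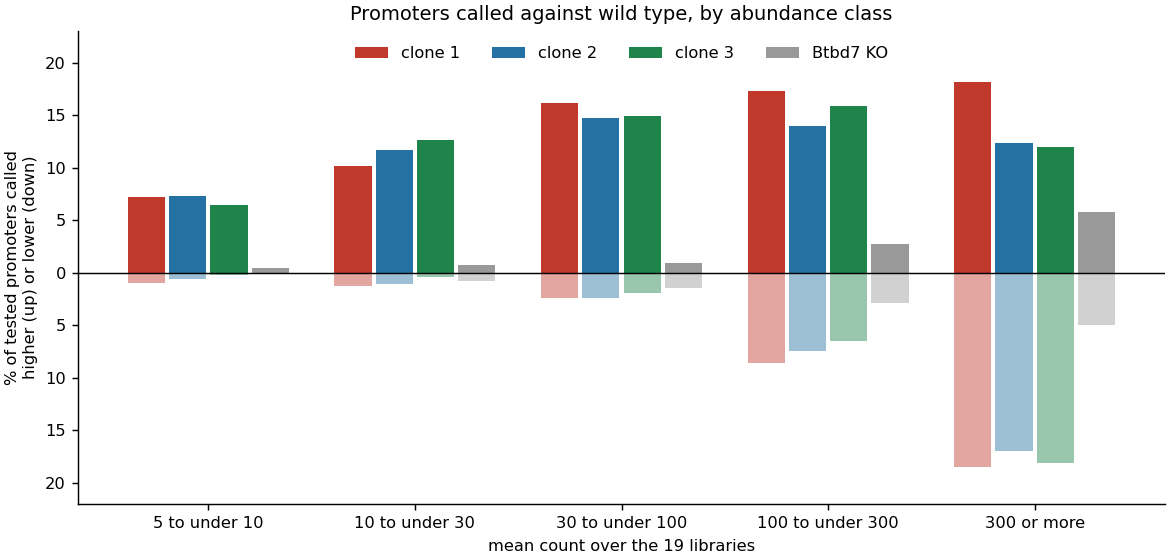
Percentage of tested promoters called higher (upward bars) or lower (downward bars) than wild type at an edgeR adjusted p under 0.05, by abundance class, for each Zcchc8 KO clone and Btbd7 KO. In each clone the lower calls reach their largest percentage in the class of 300 or more counts, at 17.0% to 18.5%. Higher calls in that class are at 18.1%, 12.4% and 12.0% in clones 1, 2 and 3. Btbd7 KO also has its largest percentages in that class, 5.79% higher and 5.02% lower.

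Classes cut by the mean over all libraries use the compared libraries, so the whole promoter table was also cut by the mean count in Btbd7 KO alone. Of 4132 promoters tested with a mean of 5 or more there, 519 were higher and 170 lower, and the median log2 fold change was 0.10. From the lowest to the highest of these classes the medians were 0.31, 0.20, 0.11, 0.0031 and -0.09. In the highest, 24 of 280 promoters were higher and 67 (23.9%) lower. Membership by itself sets part of the low classes. Of the 224 promoters with a mean under 5 in the control libraries, 217 were tested and 105 of these were higher and 0 lower, which their choice favoured. Among the 4288 promoters with a mean of 5 or more in the controls, 520 were higher and 171 lower, with a median of 0.10.

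Read library by library, the median level of a class, as log2(CPM + 0.5), was higher than wild type in each of the 12 Zcchc8 KO libraries in the 4 classes under 300 counts. In the class of 10 to under 30 counts it was 0.80 ± 0.05 in wild type (SD, n = 3), 0.70 ± 0.12 in Btbd7 KO, and 0.99 ± 0.03, 1.03 ± 0.05 and 1.06 ± 0.10 in clones 1, 2 and 3 (SD, n = 4). For the class of 300 or more counts it was 5.39 ± 0.04 in wild type against 5.47 ± 0.04, 5.40 ± 0.02 and 5.39 ± 0.02 in clones 1, 2 and 3, and all of these groups overlapped wild type. The differences from wild type were 0.14 to 0.22 in the lowest class and 0.07 to 0.10 in the class of 100 to under 300. Each of these gave an exact permutation p of 0.0571, the smallest possible (0.0952 adjusted over 20 tests). These classes were cut with the Zcchc8 KO libraries included, and 171 of the 849 promoters in the lowest class entered only through those libraries. The level of the lowest class, its p and its gap to the highest class are therefore not independent of that choice. In the class of 300 or more, clones 1 and 2 differed from wild type by 0.08 and 0.01 in this median level while their median fitted fold changes were -0.04 and -0.07, so these summaries differ in sign. The gap between the lowest and the highest class, taken in each library, narrowed by 0.21 and 0.22 in clones 2 and 3, whose libraries all lay above wild type (exact permutation p = 0.0571 each, and 0.114 adjusted over 4 tests). It differed by 0.07 in clone 1 (exact permutation p = 0.229) and by -0.11 in Btbd7 KO (exact permutation p = 0.171), and both overlapped wild type.

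**Figure D4:**
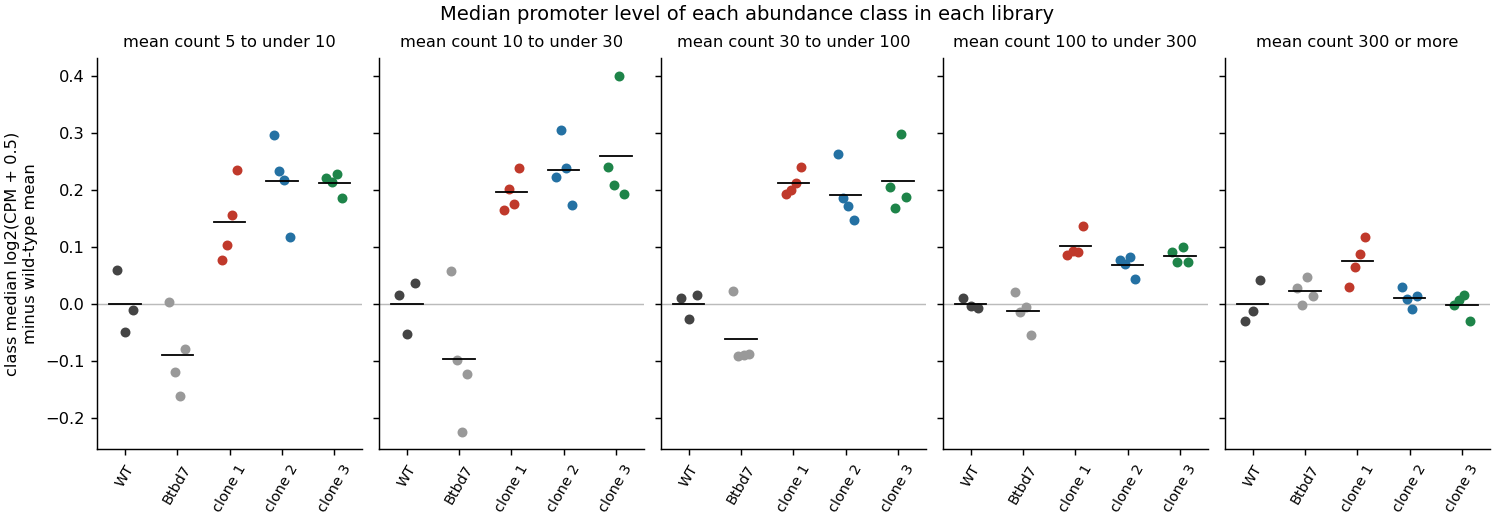
Median log2(CPM + 0.5) of the promoters of each abundance class in each library, minus the wild-type mean of that class. Points are libraries and each panel is a class. The Zcchc8 KO libraries lie above 0 in the 4 classes under 300 counts, and groups overlap wild type in the class of 300 or more.

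Summed levels gave the size of these shifts. The promoters of the lowest class together held 439 ± 38.4 CPM in wild type (SD, n = 3), and their sum was higher by 30.2%, 30.9% and 34.3% in clones 1, 2 and 3. In the class of 10 to under 30 the sums were higher by 20.5%, 24.5% and 25.8%, and in the class of 30 to under 100 by 19.6%, 15.3% and 17.7%. At 100 to under 300 counts the differences were 7.49%, 4.07% and 6.28%. The class of 300 or more, at 18556 ± 114 CPM in wild type, differed in sign between clones, at 4.76% in clone 1, -3.44% in clone 2 and -1.39% in clone 3. In Btbd7 KO the sums differed from wild type by -9.71% in the lowest class and 3.58% in the highest. In the highest class, all Btbd7 KO libraries (19153 to 19265 CPM) and all clone 1 libraries (19347 to 19488 CPM) lay above wild type (18451 to 18677 CPM). Clone 2 lay below wild type there (17758 to 18048 CPM) and clone 3 overlapped it (18120 to 18506 CPM). Of the 849 promoters in the lowest class, 171 entered only through their Zcchc8 KO counts. With the whole table cut by the Btbd7 KO counts instead, the lowest class was higher than wild type by 42.5%, 42.7% and 44.9% in clones 1, 2 and 3, while Btbd7 KO, whose counts set these classes, was at -11.5%. The class of 100 to under 300 was higher by 10.7%, 4.32% and 7.26% in the clones. The class of 300 or more then differed by 0.308% in clone 1, which overlapped wild type, and by -5.12% and -3.63% in clones 2 and 3, which lay below it.

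At each of the 3 most abundant promoters, the mean of every clone was below the wild-type mean. The most abundant stood at 1236 ± 51.7 CPM in wild type (SD, n = 3), 1292 CPM in Btbd7 KO, and 1082, 1211 and 1142 CPM in clones 1, 2 and 3 (log2 fold change of the mean of the clones -0.11, edgeR adjusted p = 0.0265). The next stood at 848 ± 24.0 CPM in wild type, 919 CPM in Btbd7 KO and 756, 776 and 729 CPM in the clones (-0.17, edgeR adjusted p = 0.00108). The last of the 3 stood at 680 ± 38.2 CPM in wild type against 591, 665 and 637 CPM in the clones (-0.11, edgeR adjusted p = 0.0919). Clone by clone, the first and the last were called only in clone 1 (edgeR adjusted p = 0.00068 and 0.0040). In clone 2 their edgeR adjusted p was 0.751 and 0.794, and in clone 3 0.0772 and 0.285. The second was called in clones 1 and 3 (edgeR adjusted p = 0.0104 and 0.00049) but not in clone 2 (0.0694).

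At the other end, 11 promoters had no count in the 3 wild-type libraries and 3 had none in all 7 wild-type and Btbd7 KO libraries. These 3 held 2 to 18, 0 to 15 and 2 to 22 counts per Zcchc8 KO library. The 3 passed the threshold only through the Zcchc8 KO libraries, so their contrast is a description. No promoter had 0 counts in all 12 Zcchc8 KO libraries, but such rows are rarer over more libraries. Over the 4 libraries of a group, 7 promoters had no count in Btbd7 KO, and 3, 2 and 0 had none in clones 1, 2 and 3.

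A set of promoters separated the groups completely. In 331 promoters each of the 12 Zcchc8 KO libraries was above each of the 3 wild-type libraries in CPM, and in 45 each was below. Among the 12956 promoters with at least 1 count these patterns occurred in 2.66% and 0.386%. Against all 7 wild-type and Btbd7 KO libraries together, 243 promoters stood above and 19 below, where 1.91% and 0.147% of the promoters with a count did so. The choice of the 4512 promoters favours those standing above, since 224 of them entered only through Zcchc8 KO counts. Of the 331, 30 were in the class of 5 to under 10 counts and 93 in that of 10 to under 30. The 12956 also include promoters below a mean of 5 counts. Of the 19 below, 12 were in the class of 300 or more counts, the class with the smallest coefficients of variation.

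The promoters below were named for the size of their change. The rule took promoters with a mean of 50 or more counts, called with the same sign for every clone and for their average but not in Btbd7 KO. It was met by 140 higher and 12 lower promoters, of which the 2 at each extreme of fold change are named. ENSMUSR00000252245 was near the floor of counting in wild type, with 8, 3 and 8 counts or 0.457, 0.220 and 0.466 CPM. It held 16.6, 13.5, 17.4 and 14.5 CPM in clone 1, 17.2, 17.1, 14.4 and 14.5 CPM in clone 2, and 7.83, 10.6, 9.48 and 10.1 CPM in clone 3. The Btbd7 KO libraries held 0.535, 0.859, 1.98 and 0.927 CPM. All 12 Zcchc8 KO libraries were above all control libraries, and clone 3 was below the other clones. The log2 fold change of the mean of the clones was 5.04 (SE 0.27, edgeR adjusted p = 2.0e-29). In Btbd7 KO it was 1.28 (edgeR adjusted p = 0.0595).

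ENSMUSR00000504174 differed most between the clones among the 4 named promoters. It held 1.37, 2.13 and 1.40 CPM in wild type and 1.19, 1.59, 0.988 and 1.52 CPM in Btbd7 KO. In clone 1 it held 68.9, 78.0, 56.2 and 55.6 CPM, in clone 2 13.1, 12.8, 12.5 and 13.0 CPM, and in clone 3 21.9, 21.6, 24.3 and 26.1 CPM. No library of any clone overlapped the controls or another clone. The log2 fold changes were 5.32 in clone 1, 2.99 in clone 2 and 3.87 in clone 3, and 4.06 for their mean (SE 0.17, edgeR adjusted p = 1.1e-37). The test that the 3 clones are equal gave an edgeR adjusted p of 1.5e-29.

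ENSMUSR00000678878 fell in each clone. It held 9.09, 7.19 and 7.69 CPM in wild type and 6.42, 7.33, 6.30 and 8.17 CPM in Btbd7 KO. It held 4.48, 4.23, 2.34 and 3.62 CPM in clone 1, 4.03, 3.94, 4.71 and 3.69 CPM in clone 2, and 3.67, 3.90, 1.92 and 3.78 CPM in clone 3. The Zcchc8 KO libraries were all below the control libraries, and the clones overlapped each other. The log2 fold change of the mean of the clones was -1.11 (SE 0.19, edgeR adjusted p = 2.2e-06).

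ENSMUSR00000262265 fell less evenly. It held 10.3, 13.1 and 9.21 CPM in wild type, 10.1, 13.7, 9.38 and 9.02 CPM in Btbd7 KO, and 7.90, 7.22, 4.98 and 5.43 CPM in clone 1. Clone 2 held 5.28, 3.51, 6.03 and 4.24 CPM and clone 3 held 5.79, 6.79, 7.18 and 9.32 CPM. The highest clone 3 library overlapped wild type. The log2 fold change of the mean of the clones was -0.84 (SE 0.16, edgeR adjusted p = 3.8e-05). With each cell line taken as 1 replicate, 3 clones against the 2 control lines, it was -0.83 with a limma adjusted p of 0.137.

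Clone by clone, the counts were similar. In clone 1, 576 of the 4470 promoters were higher and 159 lower than wild type, beside 12.9% and 3.45% called among all 4642 promoters tested. In clone 2, 544 were higher and 143 lower, beside 12.0% and 3.12% of the 4642, and in clone 3, 565 were higher and 121 lower, beside 12.6% and 2.63%. With the promoter table's own scaling the lower calls rose to 338, 255 and 268 in clones 1, 2 and 3. The median log2 fold changes over the promoters were 0.13, 0.13 and 0.17, beside 0.14, 0.14 and 0.18 over all tested. All 3 comparisons share the wild-type libraries. By class, the medians in clones 1, 2 and 3 were 0.33, 0.31 and 0.45 at 5 to under 10 counts and -0.04, -0.07 and -0.06 at 300 or more.

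Many single calls were not shared by all clones. A total of 843 promoters were higher in at least 1 clone: 332 in each clone, 178 in exactly 2 and 333 in exactly 1. Of all promoters tested, 7.3% were higher in each clone. A total of 310 were lower in at least 1 clone, with 22 in each, 69 in exactly 2 and 219 in exactly 1, and 0.474% of all promoters tested were lower in each clone. In 16 promoters, clones were called in opposite directions. No share over all promoters tested was computed for the other counts here. The 4470 promoters were all but 172 of the 4642 tested. These numbers count calls, and whether a promoter called in some clones only differed between clones is given by the test below.

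Those higher in each clone had medians of 1.96, 1.66 and 1.78 in clones 1, 2 and 3, values that chose them, and a median of 0.03 in Btbd7 KO, where 24 of the 332 were called in either direction (7.23%, beside 2.61% of all promoters tested). The 22 lower in each clone had medians of -0.52, -0.58 and -0.55, and -0.01 in Btbd7 KO, where 9 of the 22 were called in either direction (40.9%). Their median mean count was 318. In the class of 300 or more counts, 5.79% of tested promoters were called higher and 5.02% lower in Btbd7 KO. The Btbd7 KO comparison shares its wild-type libraries with those that chose both sets, so its calls are not independent of that choice. Of those 22, 11 were in the class of 300 or more counts and 0 were below 30 counts. In the classes under 30 counts the median standard error in a single clone was 0.46 to 0.81. Falls of this size could hardly be called there. Of the 332, 27 were in the class of 5 to under 10 counts, 99 in that of 10 to under 30 and 19 in that of 300 or more.

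The clones differed from each other at 430 of the 4470 promoters (9.62%) in an edgeR test of all 3 together, where 9.39% of all promoters tested differed. That share ran with abundance, from 3.35% of promoters in the class of 5 to under 10 counts through 4.94%, 9.19% and 16.9% to 40.2% in the class of 300 or more, the class with the smallest standard errors. Between clones 1 and 2, 175 promoters were higher in clone 1 and 124 lower, beside 3.81% and 2.69% of all 4642 tested. Between clones 1 and 3 the numbers were 108 and 73, beside 2.35% and 1.57% of all tested, and without replicate 1 of clone 1 they were 92 and 46. Between clones 2 and 3 they were 98 and 125, beside 2.11% and 2.76% of all tested, and without replicate 1 of clone 3 they were 53 and 89.

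For each clone, the promoter that stood furthest from both other clones was taken among those with a mean of 50 or more counts, and its values describe that choice. Clone 1's promoter held 25.5 ± 5.41 CPM there (SD, n = 4), against 3.56 ± 0.277 in clone 2, 6.87 ± 1.10 in clone 3, 1.96 ± 1.21 in wild type (n = 3) and 1.24 ± 0.873 in Btbd7 KO. Clone 2's promoter was nearly silent there, at 0.681 ± 0.568 CPM, against 5.28 ± 1.28 in clone 1, 6.68 ± 0.693 in clone 3, 5.92 ± 1.17 in wild type and 8.87 ± 1.23 in Btbd7 KO. Clone 3's promoter held 1.83 ± 0.547 CPM, against 6.64 ± 1.27 in clone 1, 5.45 ± 1.17 in clone 2, 3.60 ± 0.772 in wild type and 7.64 ± 2.15 in Btbd7 KO. In all, 56 promoters were above and 32 below both other clones in clone 1 at an edgeR adjusted p under 0.05 in both comparisons (1.21% and 0.689% of all tested). The numbers were 27 and 58 in clone 2 (0.582% and 1.25% of all tested) and 18 and 30 in clone 3 (0.388% and 0.646% of all tested).

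**Figure D5:**
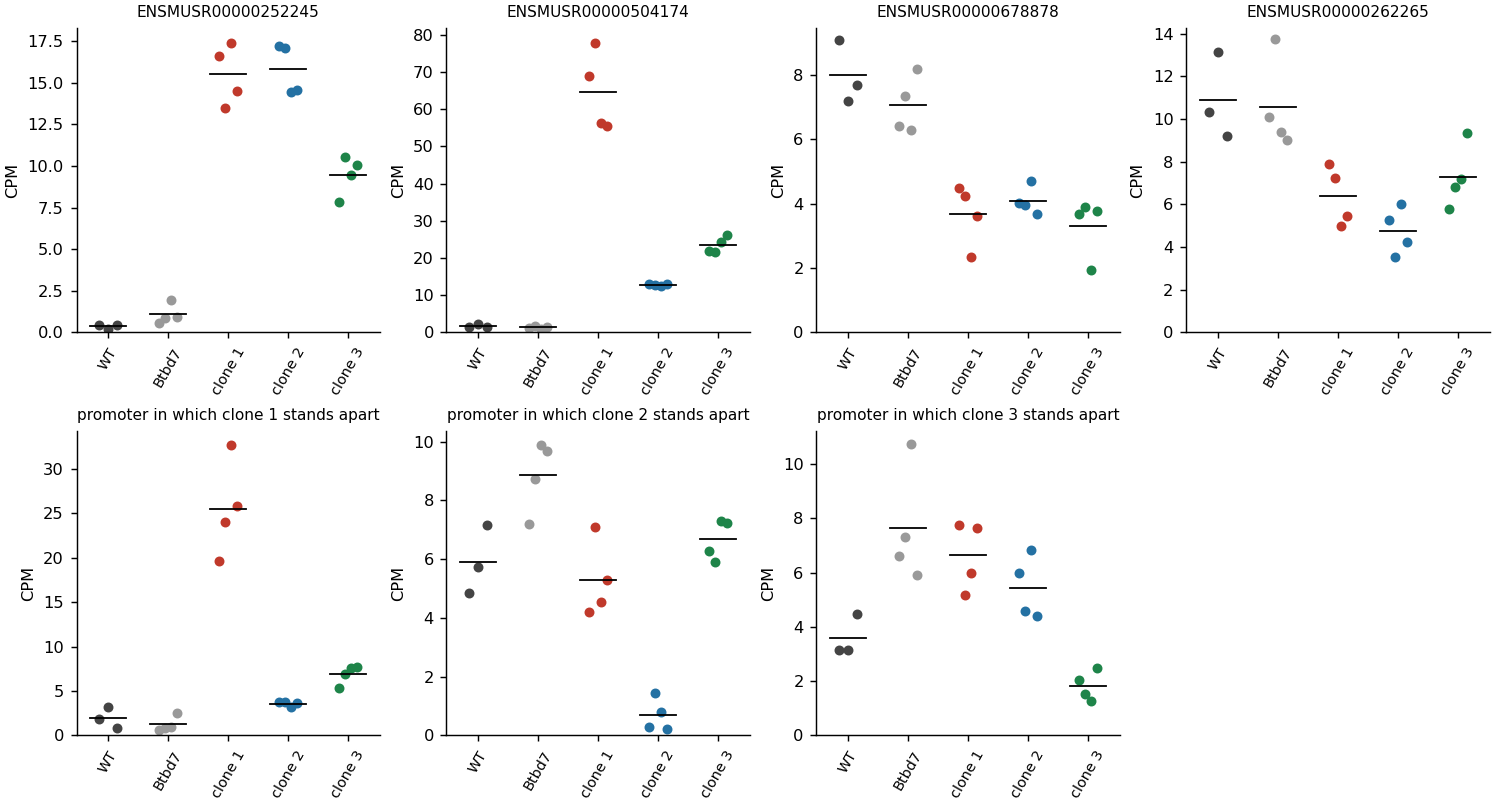
CPM (vertical axes, from 0) of the 4 named promoters (top) and of the promoter in which clone 1, 2 or 3 stood furthest from the other clones (bottom), in each of the 19 libraries by group. Points are libraries and bars are group means. ENSMUSR00000504174 stands highest in clone 1 and lowest in clone 2 among the clones, and the highest clone 3 library of ENSMUSR00000262265 lies within the wild-type range.

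Fewer promoters were called in Btbd7 KO than in any Zcchc8 KO clone. In the gene table, 1226 of 15325 genes were called higher and 1193 lower in Btbd7 KO. Against wild type, 58 were higher and 63 lower, beside 1.25% and 1.36% of all 4642 tested, and the median log2 fold change was -0.07 both over the promoters and over all tested. With the promoter table's own scaling the calls were 80 higher and 42 lower. By abundance the medians ran from -0.18 at 5 to under 10 counts through -0.10, -0.08 and -0.04 to -0.02 at 300 or more. All 4 Btbd7 KO libraries were above the 3 wild-type libraries in 230 promoters and below them in 317, where 2.18% and 2.79% of the promoters with a count did so. Without wild-type replicate 4, 39 promoters were higher and 41 lower, and at equal depth 40 were higher and 37 lower.

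Set against Btbd7 KO in place of wild type, the mean of the clones was higher at 915 promoters and lower at 257, beside 20.4% and 5.62% of all 4642 tested, with a median log2 fold change of 0.23 beside 0.24 over all tested. This comparison shares its Zcchc8 KO libraries with that against wild type. It had 4 control libraries in place of 3. With the promoter table's own scaling the split was 614 higher and 587 lower. The class of 300 or more had 51 higher and 76 lower promoters and a median of -0.06, and the lowest class had 94 higher and 5 lower and a median of 0.43.

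Promoters were last set against other features with a mean of 5 or more counts. In wild type the median promoter was higher than the median promoter flanking region by 0.34 ± 0.01 on the log2(CPM + 0.5) scale, higher than the median enhancer by 0.57 ± 0.03 and lower than the median gene by 2.83 ± 0.07 (SD, n = 3). The gap to flanking regions differed from wild type by -0.01, 0.01 and 0.0025 in clones 1, 2 and 3, and all clones overlapped wild type (exact permutation p = 0.286 to 0.914). The gap to enhancers differed by 0.07, 0.05 and 0.07, with clone 1 above all wild-type libraries and clones 2 and 3 overlapping them. The gap to genes narrowed in every clone library, by 0.21, 0.20 and 0.23 (exact permutation p = 0.0571 each, and 0.171 adjusted over 12 tests). In Btbd7 KO the gap to genes differed by -0.11 and overlapped wild type.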

How the data were processed

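Total RNA libraries were made with a kit that keeps strand, per the labels' protocols. The authors deposited raw read counts per promoter for 19 libraries and per gene for 20, the latter including wild-type replicate 1. The submitters' processing notes name FastQC and STAR 2.7.3a. The counter, its strand setting, the genome build and the rule for reads shared by overlapping features are not given in the sources used here, so a promoter count may include reads of an overlapping transcript. Groups came from the titles in the labels, and 0 columns lacked a mapped library.

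Quasi-likelihood tests of promoters used edgeR 4.0.16 under R 4.3.3 (filterByExpr by group, glmQLFit and glmQLFTest) in a single fit over 19 libraries and 5 groups. Library sizes and TMM factors came from the gene table. P-values were adjusted by Benjamini-Hochberg over the 4642 promoters tested, and 42 of the 4512 promoters were filtered out. CPM used the scaled gene totals, with a pseudocount of 0.5 on the log2 scale. Library summaries were compared by two-sided exact permutation tests (scipy 1.17.1). On simulated counts of 4642 promoters with 200 changed, the test recovered 49% of 2-fold and 92% of 4-fold changes, and 4.73% of calls were false. The simulation used the fitted spread, the same change in every clone, and as many rises as falls. It checks the test under its own model and does not give the share of false calls in these data. Every pair of replicates differed beyond sampling noise, with a chi-square of 2.19 to 6.30 per degree of freedom, and each library was used separately. Wild-type pairs were at 3.85 to 6.30 and pairs of the edited groups at 2.19 to 3.63. The median coefficient of variation was 28.3% in wild type and 24.9% to 29.7% in the edited groups. The edgeR fit used a spread shared by the 5 groups. Of 55471 gene identifiers, 55144 matched a symbol.

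The promoters, gene lists and naming rule were chosen with earlier results of these data known. Alternatives were DESeq2 1.42.0, other scalings, filters, classes, pseudocounts and thresholds, equal depth, a replicate block, only the groups compared, cell lines as replicates (limma 3.58.1), and leaving out each library. Class sums in place of medians, the share without promoters of 100 or more counts, and the share, detection and class sums over promoters chosen from the whole table by Btbd7 KO counts were added after seeing the data.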

Additional observations from a re-analysis of the deposited data

Results flagged for a closer look

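At the share of promoter counts, replicate 4 of clone 1 stood apart from the other libraries of its clone, at 39.4 counts per 1000 gene counts. That library was also highest in the median level of the class of 100 to under 300 counts, at 3.88 on the log2(CPM + 0.5) scale, and Btbd7 KO replicate 1 was highest in the class of 30 to under 100, at 2.18. At ENSMUSR00000678878, replicate 3 of clone 3 was lowest, at 1.92 CPM. At the most abundant promoter, Btbd7 KO replicate 2 was highest at 1316 CPM and clone 3 replicate 4 at 1164 CPM, each among libraries that otherwise lay close together. Such gaps are found by chance in about 1 in 20 groups of 4 libraries.

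The clones differed from each other at 2 of the 4 named promoters. At ENSMUSR00000252245 the edgeR test of all 3 clones together gave an adjusted p of 0.0021, with clone 3 below the others in 4 of 4 libraries, and at ENSMUSR00000504174 it gave 1.5e-29, with clone 1 above the others in 4 of 4 libraries.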

How the results depend on the processing

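The 4 named promoters kept their direction under every alternative run, and their calls except for ENSMUSR00000262265 with cell lines as replicates (log2 fold change -0.83). For the mean of the clones, 279 promoters were called with cell lines as replicates, 354 when a call in each clone was required and 439 with an absolute log2 fold change over 1, instead of 796. With that fold threshold the counts were 450, 414 and 439 in clones 1, 2 and 3, 45 in Btbd7 KO, 121, 71 and 77 between clones 1 and 2, 1 and 3, and 2 and 3, and 554 for the mean of the clones against Btbd7 KO. At equal depth 77 promoters were called in Btbd7 KO instead of 121.

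Leaving out each library gave 630 to 799 calls for the mean of the clones, 80 to 124 for Btbd7 KO and 142 to 257 between clones 2 and 3. The difference in share between Btbd7 KO and wild type ran from -0.302 to 0.054 per 1000, that in detected promoters from -26.8 to 33.3, and that in the gap to enhancers from -0.0036 to 0.030. The gap to flanking regions ran from -0.0061 to 0.015 in Btbd7 KO, from -0.022 to 0.0050 in clone 1 and from -0.0042 to 0.013 in clone 3. In class medians, the ranges were -0.024 to 0.00083 for Btbd7 KO at 100 to under 300 counts, and -0.0038 to 0.032 for clone 2 and -0.017 to 0.019 for clone 3 at 300 or more.

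Small differences also changed sign. In the class of 300 or more counts, clone 3 was at 0.055 without TMM, 0.082 with quintiles of the mean count and 0.0020 at equal depth. Clone 2 was at -0.0077 at equal depth, -0.051 with summed CPM and -0.076 with sums over classes cut by the Btbd7 KO counts. Btbd7 KO was at -0.0088 with quintiles. With classes cut by the Btbd7 KO counts, Btbd7 KO was at 0.0070 in the lowest class and -0.0048 in the highest, clones 1 and 2 were at -0.022 and -0.039 in the highest, and the gap between lowest and highest class in Btbd7 KO was 0.012. Detected promoters in Btbd7 KO differed by -1.83 without thinning and by -45.7 with at least 3 counts required. The gap to flanking regions in clone 1 was 0.030 with means and 0.027 with a mean of 10 or more counts. The cause of these changes was not tested.

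With the replicate number as a block, 735 promoters were called for the mean of the clones (583 higher and 152 lower), and no call of a named promoter changed. Same-numbered libraries did not deviate together (correlations -0.14 to 0.16 over 36 pairs, against -0.19 to 0.20 over 108 other pairs), and 5 of 19 libraries correlated best with their own number, so the numbers were not taken as pairs.

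Depth limits the low classes, and 3 wild-type libraries limit every exact test to p = 0.0571 or more.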
